A study of Mus musculus with 9 samples.

Results

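The genes described here are solute carriers that move sugars, inositol, iodide, amino acids, monocarboxylates such as lactate, and fatty acids into and out of cells. They were chosen by name: probe sets with a single gene symbol beginning Slc2a, Slc5a, Slc6a, Slc7a, Slc16a, Slc27a or Slc38a, with Slc6a14 left out. The rule found 162 of the 45101 probe sets on the array, which cover 88 of the 18194 genes with a symbol of their own. Of these 88 symbols, 3 are not carriers in their own right, namely the pseudogene Slc2a4rg-ps, the opposite-strand transcript Slc6a19os and the separate gene Slc7a6os, and they were kept because the rule takes them.

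RNA came from 3 neighbouring zones of the mouse stomach: the squamocolumnar junction, the forestomach, which is lined by squamous epithelium without glands, and the corpus, the acid-secreting glandular part. All 9 mice were healthy, untreated C57Bl/6 females aged 3 months on a standard diet, with no transgene or deletion in any group. One stripe of each zone, 600 to 800 µm wide, was cut from every stomach, and stripes of 3 mice were pooled into 1 sample, giving 3 pools and so 3 arrays per zone. Arrays that carry the same number hold tissue of the same 3 mice. The labels call the tissue epithelium, but markers of the muscle wall were measured on every array, with a summed signal of 8 smooth muscle genes of 24422 to 29069 in the junction, 56605 to 61974 in the forestomach and 21407 to 31184 in the corpus.

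Solute carriers of the Slc2 family let hexoses pass down their gradient, whereas Slc5 and Slc6 members couple uptake to sodium, so that cells can concentrate sugars, iodide, amino acids or monoamines. Slc7 and Slc38 proteins carry amino acids, some Slc7 members only when bound to the heavy chain Slc3a2. Slc16 proteins carry lactate, pyruvate, ketone bodies and aromatic amino acids, and Slc27 proteins take part in fatty acid uptake and activation. In the stomach the acid-secreting parietal cells and the enzyme-secreting chief cells lie in corpus glands, while the forestomach has a stratified, cornified lining.

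The tissue labels fitted their markers with one difference among forestomach arrays. All 12 parietal and all 8 chief cell markers were lower in the forestomach than in the corpus, and all 12 markers of the suprabasal and cornified squamous layers were higher. On forestomach arrays 1, 2 and 3 the median parietal marker stood at 1.30%, 3.11% and 5.22% of its corpus mean, the median chief cell marker at 1.14%, 2.70% and 5.50%, and the median mucous cell marker at 0.977%, 23.3% and 32.0%. Arrays 2 and 3 of the forestomach thus held more transcript of gland and mucous cells than array 1. Values with forestomach array 1 as the only forestomach array are given below for some members. Muscle moved too: all 8 smooth muscle markers, 6 of 7 fibroblast markers and 5 of 6 neuron and glia markers were higher in the forestomach than in the corpus, and the summed skeletal muscle signal was 1996 on junction array 1 and 2646 on forestomach array 3 against 389 to 866 on the other junction and forestomach arrays and 359 to 531 in the corpus. The part of any of these tissues in the carrier differences was not tested. In pooled tissue, fewer cells of a type and less RNA per cell cannot be told apart.

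Signals are given on the linear scale of the deposited table, in which each array has the same trimmed mean of 200 (2% removed at each end). Signals of different genes come from different probes and are not compared. A gene was tested if at least 3 of the 9 arrays held its probe set above the 40th percentile of that array, which lay between 29.0 and 36.5 and is called the filter level here. This kept 63 of the 88 symbols, through 114 probe sets: 9 of 12 in Slc2, 8 of 13 in Slc5, 12 of 20 in Slc6, 10 of 16 in Slc7, 12 of 13 in Slc16, 3 of 5 in Slc27 and 9 of 9 in Slc38. Of these, 2 passed through the forestomach arrays alone (Slc6a15 and Slc6a4) and 2 through the corpus arrays alone (Slc5a8 and Slc27a2). Such genes were tested only because they were high in that zone, so their p-values against it are not independent of the filter. They stay in the counts of calls below. The 25 symbols not tested had signals of at most 59.1. They were Slc2a2, Slc2a6 and Slc2a9 among hexose carriers, Slc5a4a, Slc5a4b, Slc5a7, Slc5a11 and Slc5a12 among sodium-coupled carriers, Slc6a3, Slc6a5, Slc6a11, Slc6a12, Slc6a13, Slc6a16, Slc6a20b and Slc6a21 in Slc6, Slc7a3, Slc7a9, Slc7a10, Slc7a12, Slc7a13 and Slc7a15 in Slc7, Slc16a8, and the fatty acid transport proteins Slc27a3 and Slc27a5.

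The sequences just upstream of genes with large forestomach to corpus differences were read from RefSeq on GRCm38.p6, so that the elements named below can be seen in place. Each window runs 5′ to 3′ on the gene's strand from 250 bases before the annotated start to 50 bases after it. Capitals mark a match, on either strand, to one of the 7 motifs searched.
Slc6a19, chr13:73692587-73692886 (- strand): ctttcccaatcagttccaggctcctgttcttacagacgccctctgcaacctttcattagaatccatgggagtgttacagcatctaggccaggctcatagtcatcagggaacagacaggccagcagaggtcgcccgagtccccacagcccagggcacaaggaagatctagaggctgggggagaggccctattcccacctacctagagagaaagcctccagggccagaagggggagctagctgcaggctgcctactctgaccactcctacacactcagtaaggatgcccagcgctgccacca
Slc5a1, chr5:33103969-33104268 (+ strand): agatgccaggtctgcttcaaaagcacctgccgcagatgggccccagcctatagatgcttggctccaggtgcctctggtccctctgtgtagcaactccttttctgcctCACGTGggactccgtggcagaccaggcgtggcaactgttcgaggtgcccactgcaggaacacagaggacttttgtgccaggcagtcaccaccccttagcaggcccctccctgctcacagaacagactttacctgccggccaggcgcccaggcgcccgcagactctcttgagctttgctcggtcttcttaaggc
Slc7a11, chr3:50443564-50443863 (- strand): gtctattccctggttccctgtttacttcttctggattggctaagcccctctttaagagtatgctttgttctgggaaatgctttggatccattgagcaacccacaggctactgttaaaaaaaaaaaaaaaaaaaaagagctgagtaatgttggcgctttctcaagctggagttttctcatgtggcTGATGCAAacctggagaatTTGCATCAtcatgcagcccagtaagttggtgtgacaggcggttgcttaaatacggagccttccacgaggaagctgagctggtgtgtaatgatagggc
Slc5a5, chr8:70892708-70893007 (- strand): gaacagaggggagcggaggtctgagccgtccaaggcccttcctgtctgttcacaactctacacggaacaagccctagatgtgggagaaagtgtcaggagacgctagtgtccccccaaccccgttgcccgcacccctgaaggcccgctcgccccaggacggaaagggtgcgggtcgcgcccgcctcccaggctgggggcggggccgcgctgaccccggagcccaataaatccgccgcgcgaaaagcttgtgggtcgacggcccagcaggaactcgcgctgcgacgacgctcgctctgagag
Slc38a5, chrX:8271131-8271430 (+ strand): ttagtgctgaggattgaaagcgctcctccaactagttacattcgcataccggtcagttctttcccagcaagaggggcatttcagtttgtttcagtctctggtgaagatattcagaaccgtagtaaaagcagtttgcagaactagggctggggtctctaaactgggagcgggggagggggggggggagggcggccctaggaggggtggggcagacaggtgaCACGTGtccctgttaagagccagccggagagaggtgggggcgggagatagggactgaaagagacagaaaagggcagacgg
These are 3 genes that rose and 2 that fell strongly in the forestomach. They were taken by the size of the difference with the constant 9.9, up to 3 in each direction. Among the falls, Slc38a5 (-3.65), below the filter level in the forestomach, and Slc16a7 (-3.64) were nearly equal. Slc16a7 is not shown because no promoter window was listed for it. The Slc5a1 window holds 1 E-box, CACGTG, whose first base lies 143 bases before the start, and the Slc38a5 window holds 1 at 30 bases before it. The Slc7a11 window holds 2 matches to the C/EBP-ATF response core TGATGNAA, the element that the amino acid response factor Atf4 is known to bind with a C/EBP partner, beginning 66 and 47 bases before the start and lying on opposite strands. Neither the Slc6a19 nor the Slc5a5 window held any of the letters searched. An entry was given for 43 of the 63 genes tested. The E-box stood in 6 of these 43 windows (14.0%), against 7.24% of 27025 mouse promoter windows. A match to the C/EBP-ATF response core stood in 2 of the 43 (Slc7a11 and Slc7a7, 4.65%), against 4.06%. Among the other motifs, the antioxidant response core TGACNNNGC stood in 5 windows (11.6%) against 12.5%, the nuclear receptor element AAGGTCA in 2 (4.65%) against 4.66%, and the TATA box TATAAA in 2 (4.65%) against 14.2%. The HNF4 site CAAAGTCCA and the p53 family element stood in 0 of the 43, against 0.477% and 0.77% of all windows. Matches to different motifs were counted apart, whether or not they overlapped. A match describes the letters only.

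Carriers of all 7 families differed between forestomach and corpus, in both directions. Differences are log2(signal + 9.9), which understates the change of dim genes, and a gene was called at an adjusted p below 0.05 in limma with Benjamini-Hochberg adjustment over the 13637 genes tested. Of the 63 members, 19 (30.2%) were higher in the forestomach than in the corpus and 21 (33.3%) lower, against 30.0% and 29.9% of all genes, so both shares lay near those of all genes. Between junction and corpus 10 members (15.9%) were higher and 12 (19.0%) lower in the junction, against 13.2% and 11.8% of all genes. Between junction and forestomach 19 (30.2%) were higher and 19 (30.2%) lower in the junction, against 21.5% and 23.1%. The median log2 difference over the members was -0.0043 (forestomach minus corpus), -0.14 (junction minus corpus) and 0.10 (junction minus forestomach), beside -0.01, -0.05 and -0.04 over all genes. Between forestomach and corpus, Slc2 had 2 members higher and 3 lower of 9 (median -0.11), Slc5 had 3 and 3 of 8 (-0.32), Slc6 had 4 and 2 of 12 (0.14) and Slc7 had 2 and 5 of 10 (-0.40). Slc16 had 5 and 5 of 12 (0.16), Slc27 had 1 and 1 of 3 (0.10) and Slc38 had 2 and 2 of 9 (0.04). Between junction and corpus, Slc16 had the most members higher, 4 of 12 with 1 lower, while Slc2 had 0 higher and 3 lower of 9 and Slc38 had 0 higher and 2 lower of 9. The plot of all members shows that each family held members on both sides of zero.

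**Figure D1:**
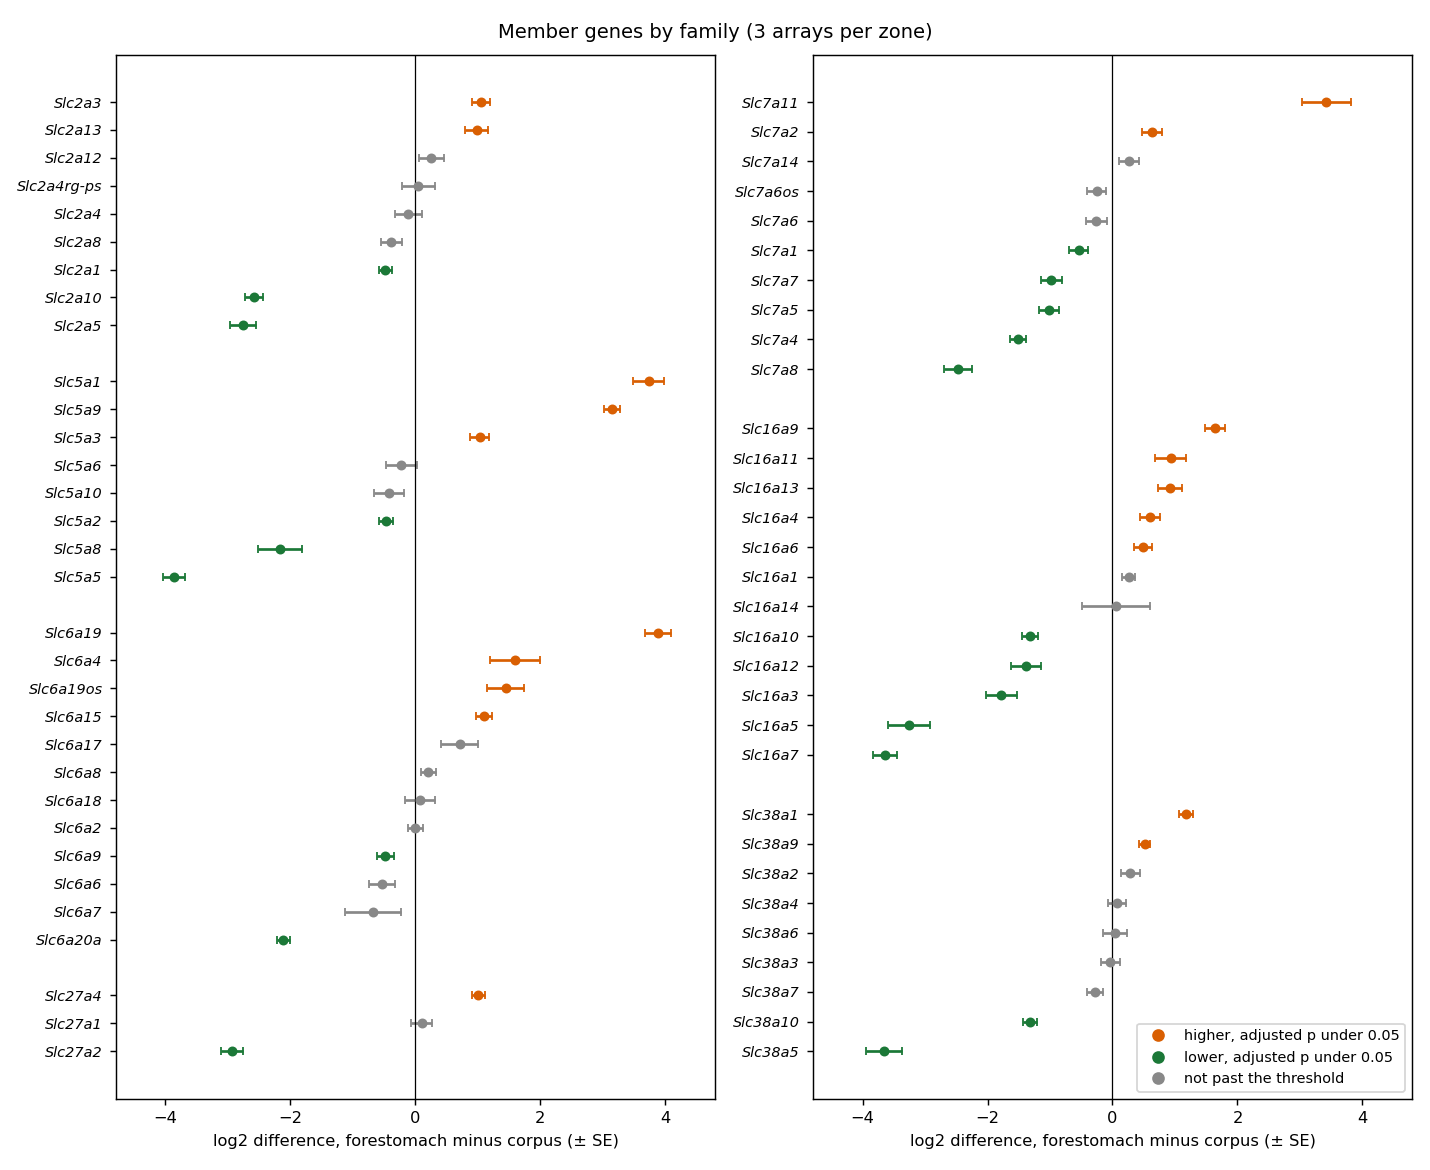
Log2 difference of the signal, forestomach minus corpus (x axis), for each of the 63 member genes tested, grouped by family; points are the limma estimate and bars its standard error (3 arrays per zone). Orange points are the 19 genes called higher in the forestomach, green points the 21 called lower and grey points the 23 not past the threshold.

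Junction counts depended on which arrays were fitted, and a series left out removes 1 array of each zone. Counts over all genes fell too. Over the alternatives they were as low as 903 higher and 326 lower in the junction than in the corpus. Against the forestomach they were as low as 1790 lower in the junction, with 3152 in the main fit. The member counts below are to be read beside this. Without series 2, 5 members were higher and 3 lower in the junction than in the corpus, and without series 3, 5 were lower. Without junction array 3, 7 were lower. Against the forestomach, 11 members were lower in the junction without series 1, 11 without series 3, and 12 with forestomach array 1 as the only forestomach array. Centring each array on its median moved the all-gene median by about 0.1 in both comparisons with the corpus, to 0.10 for the forestomach and 0.05 for the junction. With that centring 2112 genes were higher and 878 lower in the junction than in the corpus, against 1801 and 1606 without it, and 11 members were higher and 10 lower.

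Among the hexose carriers of the Slc2 family, the fructose carrier Slc2a5 and Slc2a10 were the genes that fell most in the forestomach. Slc2a5 had signals of 165.0, 109.0 and 101.1 in the junction, 25.9, 38.2 and 35.3 in the forestomach, and 284.6, 337.8 and 229.4 in the corpus. Its 3 zones did not overlap, and the junction lay between the others. The log2 difference was -2.77 ± 0.21 (SE; 6.80-fold, adjusted p = 6.55e-06) for forestomach minus corpus and -1.14 ± 0.21 (2.2-fold, adjusted p = 0.00533) for junction minus corpus, the second of which was not called without series 2 (adjusted p = 0.0926). Slc2a10, known as GLUT10, read 281.8, 269.9 and 225.1 in the junction, 45.2, 65.5 and 48.7 in the forestomach, and 356.8, 352.0 and 387.6 in the corpus. Again no arrays overlapped, and the junction exceeded the forestomach by 2.10 ± 0.14 (4.29-fold, adjusted p = 8.53e-06). Its junction minus corpus difference of -0.49 ± 0.14 (adjusted p = 0.0344) was lost with series as a block (adjusted p = 0.0523), under median centring (0.0859), with no filter (0.0586), and without junction array 2 or 3, any of the corpus arrays, or any whole series (0.0665 to 0.261).

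Of the remaining glucose carriers, Slc2a1 and Slc2a3 moved in opposite directions. Slc2a1, the widely expressed basal glucose carrier GLUT1, had signals of 1555.7, 1523.5 and 1555.4 in the junction, 1112.7, 872.3 and 948.7 in the forestomach, and 1313.1, 1325.1 and 1460.0 in the corpus. All 3 junction arrays were above the other 6. The junction exceeded the forestomach by 0.66 ± 0.11 (1.58-fold, adjusted p = 0.00116), but its 0.18 ± 0.11 over the corpus did not pass the threshold (adjusted p = 0.255). Its other 2 kept probe sets were called higher in the junction than in the corpus (0.49 and 0.41), and the mean of the 3 passed at 0.36 (adjusted p = 0.0238). The forestomach was lower than the corpus by 0.48 ± 0.11 on the log2 scale (1.40-fold, adjusted p = 0.00394), a call lost without series 3 (adjusted p = 0.0674) and with forestomach array 1 alone (0.107). Slc2a3, the high-affinity carrier GLUT3 of neurons, had 86.2, 88.7 and 60.4 in the junction, 158.8, 157.0 and 152.0 in the forestomach, and 74.5, 59.7 and 78.1 in the corpus. The forestomach stood alone above overlapping junction and corpus arrays, by 1.05 ± 0.15 over the corpus (2.07-fold, adjusted p = 3.18e-04), and the junction was below it by 0.92 ± 0.15 (adjusted p = 0.00115). The other kept probe set of Slc2a3 gave 0.77 without a call in the first comparison and -1.20 with a call in the second. Slc2a13, which takes up myo-inositol with protons and is best known in brain, read 77.0, 56.0 and 45.5 in the junction, 118.6, 100 and 100.1 in the forestomach, and 40.4, 48.7 and 58.9 in the corpus. It followed the same order, 0.98 ± 0.18 higher in the forestomach than in the corpus (adjusted p = 0.00151) and 0.76 ± 0.18 lower in the junction than in the forestomach (adjusted p = 0.00852). This last call was lost without series 2 (adjusted p = 0.0808) and with forestomach array 1 alone (0.0521). Beside both genes, the summed signal of 6 neuron and glia markers was 402 to 482 in the junction, 790 to 940 in the forestomach and 581 to 604 in the corpus.

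The insulin-responsive carrier Slc2a4 (GLUT4) and Slc2a12 were lowest in the junction. Slc2a4 ran from 284.5 to 532.3 in the junction, from 564.3 to 703.3 in the forestomach and from 644.1 to 802.3 in the corpus, with all junction arrays below the other 6. The differences were -0.88 ± 0.22 for junction minus corpus (adjusted p = 0.0187) and -0.77 ± 0.22 for junction minus forestomach (adjusted p = 0.0185). The first was lost without junction array 2 or 3, corpus array 1, series 2 or series 3 (adjusted p of 0.0588 to 0.145), and the second without junction array 2 or 3, forestomach array 1 or 3, series 2 or series 3, or with forestomach array 1 alone (0.0526 to 0.171). Slc2a4 is known from muscle and fat. The skeletal muscle sum was 389 to 1996 in the junction, 788 to 2646 in the forestomach and 359 to 531 in the corpus. The part of muscle in the Slc2a4 differences was not tested. Slc2a12 was below the forestomach in the junction by 0.85 ± 0.20 (adjusted p = 0.00859; 0.0532 without series 1 and 0.0544 without series 3) and did not pass against the corpus (-0.60 ± 0.20, adjusted p = 0.0602). The intracellular hexose carrier Slc2a8 and the pseudogene Slc2a4rg-ps passed in none of the 3 comparisons.

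The sodium-coupled Slc5 family held carriers that rose strongly in the forestomach and others that fell there. Slc5a1, the intestinal sodium-glucose cotransporter SGLT1, had signals of 208.4, 386.1 and 366.2 in the junction, 781.8, 830.0 and 648.3 in the forestomach, and 55.8, 53.2 and 34.9 in the corpus. The zones did not overlap, and the junction lay between them. The forestomach exceeded the corpus by 3.73 ± 0.25 (13.3-fold, adjusted p = 2.68e-06) and the junction exceeded the corpus by 2.48 ± 0.25 (5.59-fold, adjusted p = 1.70e-04). Slc5a9, the mannose and glucose carrier SGLT4, had 125.7, 141.3 and 164.3 in the junction, 330.3, 366.2 and 303.2 in the forestomach, and 31.5, 30.2 and 24.8 in the corpus. It had the same order without overlap, but its corpus arrays were all below the filter level. The forestomach was 3.15 ± 0.13 above the corpus (adjusted p = 2.07e-07) and the junction 1.98 ± 0.13 above it (adjusted p = 1.03e-05). Averaged over its 4 kept probe sets, the same differences were 3.75 and 2.78. The junction was below the forestomach for both genes, by 1.25 ± 0.25 for Slc5a1 (adjusted p = 0.00338) and by 1.16 ± 0.13 for Slc5a9 (adjusted p = 1.38e-04).

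Pdzk1ip1, a small membrane protein known to raise the activity of the renal cotransporter Slc5a2, was measured beside them. It read 1418.3, 1995.9 and 2131.1 in the junction, 2839.1, 3134.9 and 3521.8 in the forestomach, and 230.1, 202.9 and 217.9 in the corpus, without overlap. It was higher in the forestomach than in the corpus by 3.80 ± 0.16 (adjusted p = 2.35e-07). Slc5a2 itself was dim, with signals of 46.5 to 57.9 in the junction, 35.8 to 45.5 in the forestomach and 53 to 64.2 in the corpus, and was lower in the forestomach than in the corpus by 0.47 ± 0.12 (adjusted p = 0.00749). That call was lost in the mean of its probe sets (adjusted p = 0.0932), with trend and robust options (0.0642), without series 1 or 3 (0.0663 and 0.0989) and with forestomach array 1 alone (0.0518).

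**Figure D2:**
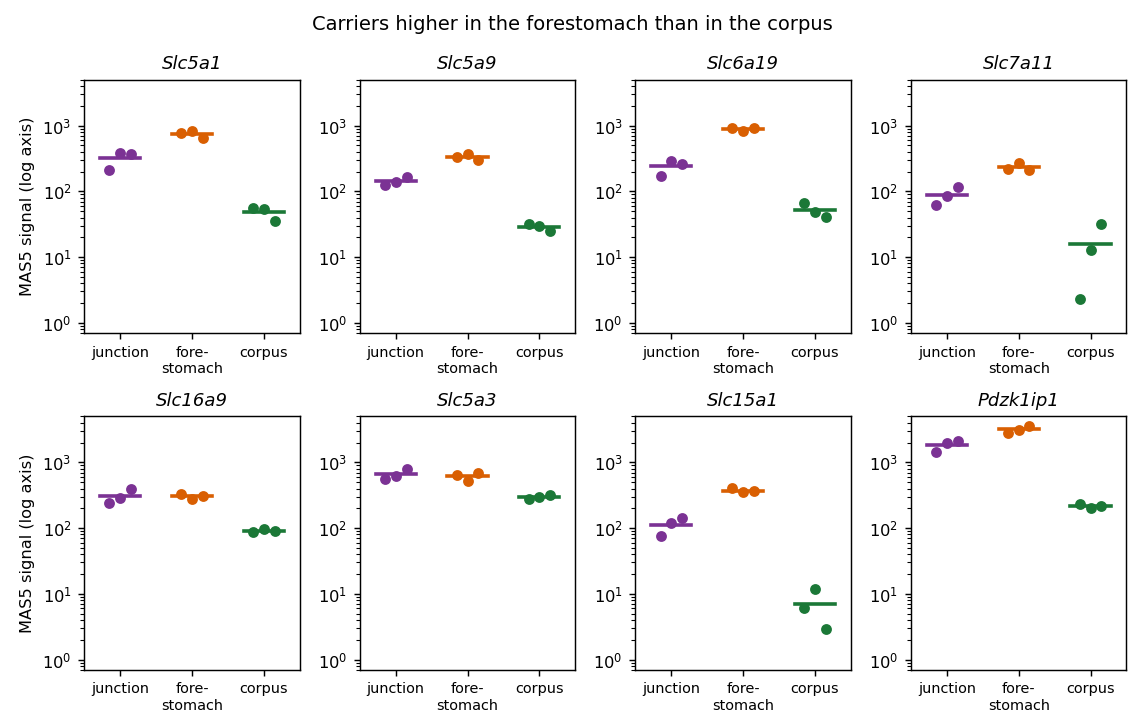
Signal (y axis, log scale) of 6 member genes, the peptide carrier Slc15a1 and the small membrane protein Pdzk1ip1 on each of the 3 arrays of junction, forestomach and corpus; points are arrays and lines the mean of 3. The forestomach arrays lie above the corpus arrays in every panel; in Slc16a9 and Slc5a3 the junction arrays reach the forestomach arrays.

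Slc5a3, which takes up myo-inositol with sodium, differed from both sugar carriers in the junction. It had 565.2 to 806.7 in the junction, 529.9 to 681.6 in the forestomach and 277.7 to 314.9 in the corpus. Junction and forestomach overlapped and both were above the corpus, by 1.13 ± 0.15 (adjusted p = 9.8e-04) and 1.03 ± 0.15 (adjusted p = 3.8e-04). Its other kept probe set gave 0.38 and -0.09 and was not called in either comparison, so the gene's difference rests on 1 probe set.

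Slc5a5, the sodium-iodide symporter, had the lowest forestomach minus corpus difference of all members with the constant 9.9. Its signals were 497.7, 468.8 and 330.7 in the junction, 35.6, 37.8 and 30.6 in the forestomach, and 673.1, 736.0 and 523.4 in the corpus. The forestomach arrays sat near the filter level, while the junction and corpus arrays were far above them. The log2 difference was -3.86 ± 0.18 for forestomach minus corpus (14.6-fold, adjusted p = 3.9e-07) and 3.29 ± 0.18 for junction minus forestomach (9.80-fold, adjusted p = 3.22e-06), or -3.28 and 2.57 in the mean of both kept probe sets. The junction was below the corpus by only 0.57 ± 0.18 (adjusted p = 0.0485), a call that ended in 11 fits with arrays left out (adjusted p of 0.0519 to 0.208), namely without junction array 2 or 3, any forestomach array, corpus array 1 or 2, or any series, or with forestomach array 1 alone. It also ended under 6 other alternatives (0.0512 to 0.0843). With the smaller constant Slc38a5 (-4.64) and Slc27a2 (-4.63) fell further than Slc5a5 (-4.17), and in the mean of probe sets Slc16a7 did (-3.64). In mouse stomach this carrier is best known for moving iodide into gastric juice.

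Slc5a8, which takes up lactate, ketone bodies and short-chain fatty acids with sodium, was above the filter level in the corpus only. It read 18.8, 22.4 and 1.9 in the junction, 11.5, 14.6 and 6.9 in the forestomach, and 96.7, 87.1 and 67.3 in the corpus. Junction and forestomach were below the filter level on all 6 arrays and could not be told apart (0.10 ± 0.35, adjusted p = 0.834). Both were lower than the corpus, by 2.06 ± 0.35 on the log2 scale for the junction (adjusted p = 0.00371) and by 2.17 ± 0.35 for the forestomach (adjusted p = 7.31e-04). Slc5a8 was tested through its corpus arrays alone, so these 2 p-values are not independent of the filter. Since these signals are dim, the sizes followed the constant added: -2.92 and -2.86 with 1, and -1.36 and -1.45 with 30.9. The vitamin carrier Slc5a6 and Slc5a10 did not pass in any comparison.

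In the Slc6 family, carriers of neutral amino acids changed in opposite directions. Slc6a19, known as B0AT1 and the main sodium-coupled neutral amino acid carrier of intestine and kidney, read 171.5, 291.7 and 261.4 in the junction, 918.8, 842.9 and 915.5 in the forestomach, and 66.5, 48.5 and 41.5 in the corpus. The zones did not overlap and the junction lay between the others. The forestomach exceeded the corpus by 3.88 ± 0.21 (14.7-fold, adjusted p = 7.96e-07), and the junction exceeded the corpus by 2.01 ± 0.21 (4.01-fold, adjusted p = 2.21e-04) but fell short of the forestomach by 1.88 ± 0.21 (3.67-fold, adjusted p = 1.47e-04). In the mean of both kept probe sets the first of these became 4.54 and the second 2.68. The opposite-strand transcript Slc6a19os had 27.7, 45.7 and 52.3 in the junction, 64.5, 57.6 and 121.4 in the forestomach, and 30.6, 15.7 and 21.7 in the corpus, a difference of 1.44 ± 0.29 for forestomach minus corpus (adjusted p = 0.00269), against corpus arrays all below the filter level. Its junction arrays overlapped with those of the corpus, and neither junction comparison passed (adjusted p = 0.136 and 0.0596).

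Slc6a19 is known to need Cltrn to reach the cell surface in kidney. Cltrn had signals of 23.9, 19.7 and 34.9 in the junction, 3.5, 11.7 and 1.4 in the forestomach, and 61.7, 37.5 and 43.1 in the corpus. It ran opposite to Slc6a19, lower in the forestomach than in the corpus by 1.93 ± 0.27 on the log2 scale (adjusted p = 2.78e-04), or by 3.20 and 1.10 with the smaller and larger constants. Its forestomach signals were all below the filter level.

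Slc6a20a, which carries proline and other imino acids, was lower in the forestomach. It had 261.2, 220.0 and 224.3 in the junction, 55.3, 55.5 and 58.7 in the forestomach, and 282.5, 253.9 and 296.9 in the corpus. Junction and corpus overlapped and did not differ past the threshold (-0.23 ± 0.10, adjusted p = 0.126), whereas the forestomach was 2.11 ± 0.10 below the corpus (4.33-fold, adjusted p = 4.3e-07) and the junction 1.88 ± 0.10 above the forestomach (3.68-fold, adjusted p = 2.89e-06). Slc6a15, a carrier of branched-chain amino acids and proline known from brain, went the other way, with 24.6 to 33.0 in the junction, 61.0 to 77.0 in the forestomach and 25.2 to 31.3 in the corpus. Only its forestomach arrays exceeded the filter level, and they were 1.09 ± 0.13 above the corpus (adjusted p = 9.34e-05). That p-value is not independent of the filter.

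The family also holds carriers of monoamines, creatine, taurine and glycine. The serotonin carrier Slc6a4 read 14.6, 30.8 and 3.0 in the junction, 88.7, 56.0 and 91.4 in the forestomach, and 31.5, 13.0 and 15.3 in the corpus. All junction and corpus arrays were below the filter level and overlapped. Slc6a4 was tested through its forestomach arrays alone, so its p-values against the forestomach are not independent of the filter. The forestomach stood above the corpus by 1.59 ± 0.41 (adjusted p = 0.00846; 0.0546 with forestomach array 1 alone). The junction was 1.89 ± 0.41 below the forestomach (adjusted p = 0.00526). Without series 1 the junction difference was -1.83 (adjusted p = 0.0525), without series 2 it was -2.49 (0.00733) and without series 3 it was -1.35 (0.0507), and it was -2.63 and -1.25 with the smaller and larger constants. The creatine carrier Slc6a8 had 658.6, 566.6 and 573.7 in the junction, 688.1, 606.1 and 700.7 in the forestomach, and 558.2, 651.1 and 518.6 in the corpus. Its zones overlapped and no comparison passed (adjusted p = 0.155, 0.745 and 0.34), but its other kept probe set was called higher in the forestomach, by 1.24, and in the junction, by 0.99, than in the corpus. In the mean of both probe sets the forestomach difference of Slc6a8 was 0.73 (adjusted p = 3.98e-04).

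The taurine carrier Slc6a6 differed in its call with the pairing of arrays by series and with the probe sets used. It ranged from 1431.5 to 2240.5 in the junction, from 975.2 to 1340.5 in the forestomach and from 1413.3 to 2097.2 in the corpus, with array 2 lowest in each zone. Unpaired, forestomach minus corpus was -0.53 ± 0.21 (adjusted p = 0.0533), and with series as a block the same difference had an adjusted p of 0.00218. In the mean of its 4 kept probe sets it was -1.11 (adjusted p = 7.52e-04), and 1 other probe set was called by itself, at -2.30. The junction of Slc6a6 was 0.63 ± 0.21 above the forestomach (adjusted p = 0.0376), a call lost without junction array 1 or 3, forestomach array 2 or 3, corpus array 3, series 1 or series 3, with forestomach array 1 alone and with no filter (adjusted p of 0.0538 to 0.301). The glycine carrier Slc6a9 was lower than the corpus in both other zones, by 0.58 ± 0.14 on the log2 scale in the junction (adjusted p = 0.0165) and by 0.48 ± 0.14 in the forestomach (adjusted p = 0.0142). The junction call of Slc6a9 ended without junction array 3, corpus array 3 or any series and in the mean of its probe sets (adjusted p of 0.0551 to 0.194). Its forestomach call ended without corpus array 3, series 2 or series 3, with forestomach array 1 alone, and under median centring (0.0501 to 0.149). The vesicular carrier Slc6a17 of neurons was lower in the junction than in the forestomach (-0.88 ± 0.30, adjusted p = 0.0405), a call that ended without any of the junction or forestomach arrays, corpus array 2 or any series and with forestomach array 1 alone (adjusted p of 0.0507 to 0.307), and also with the smaller constant (0.052) or no filter (0.0615). Slc6a2, Slc6a7 and Slc6a18 passed in no comparison.

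The cystine-glutamate exchanger Slc7a11 (xCT), which brings in cystine for glutathione synthesis, rose most in the Slc7 family. Its signals were 61.9, 86.5 and 115.6 in the junction, 222.9, 269.5 and 209.3 in the forestomach, and 2.3, 12.9 and 31.6 in the corpus. No arrays overlapped, and the corpus arrays were all near or below the filter level. The forestomach exceeded the corpus by 3.42 ± 0.40 (10.7-fold, adjusted p = 9.22e-05; 2.55 with the larger constant) and the junction exceeded the corpus by 2.08 ± 0.40 (4.22-fold, adjusted p = 0.00626; 1.38 with the larger constant, and adjusted p = 0.0966 without series 2). The junction was below the forestomach by 1.35 ± 0.40 (adjusted p = 0.0229), lost without junction array 1 or 2, forestomach array 1 or 2, or series 2, and with forestomach array 1 alone (adjusted p of 0.0519 to 0.175). The promoter window of Slc7a11 above holds 2 matches to the C/EBP-ATF response core. That of Slc7a7, which was lower in the forestomach than in the corpus (-0.98), also holds 2.

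Most other amino acid carriers of the family fell in the forestomach. Slc7a8, the neutral amino acid exchanger LAT2, had 257.5, 153.4 and 137.4 in the junction, 74.8, 75.7 and 101.5 in the forestomach, and 526.5, 547.0 and 446.2 in the corpus. The 3 zones did not overlap. The differences were -2.47 ± 0.22 for forestomach minus corpus (5.53-fold, adjusted p = 1.97e-05) and -1.47 ± 0.22 for junction minus corpus (2.77-fold, adjusted p = 0.00203), and the junction was 1.0 ± 0.22 above the forestomach (adjusted p = 0.00646). Without series 2 both junction calls were lost (adjusted p = 0.0638 and 0.057). Slc7a5, the leucine exchanger LAT1, had 239.9, 258.7 and 322.6 in the junction, 214.6, 255.9 and 263.9 in the forestomach, and 602.9, 415.0 and 511.5 in the corpus. Junction and forestomach overlapped and both lay below the corpus, by 0.87 ± 0.16 on the log2 scale in the junction (1.83-fold, adjusted p = 0.00606; 0.0561 without series 1) and by 1.02 ± 0.16 in the forestomach (2.03-fold, adjusted p = 7.02e-04).

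Both LAT1 and LAT2 work only with the heavy chain Slc3a2, and so does xCT. Slc3a2 read 1260.9, 974.4 and 1132.8 in the junction, 826.6, 832.0 and 814.5 in the forestomach, and 1887.1, 1703.1 and 1911.0 in the corpus, in the same order as Slc7a8 and opposite to Slc7a11. It was lower in the forestomach than in the corpus by 1.14 ± 0.11 on the log2 scale (adjusted p = 2.78e-05), with no overlap of arrays.

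Slc7a4, a relative of the cationic amino acid carriers whose own substrate is not settled, had 326.4, 326.5 and 275.4 in the junction, 135.3, 114.0 and 134.1 in the forestomach, and 372.4, 438.3 and 336.0 in the corpus. The forestomach was 1.51 ± 0.13 below the corpus (2.84-fold, adjusted p = 1.31e-05). The junction arrays lay just below all corpus arrays, but their difference of -0.29 ± 0.13 did not pass (adjusted p = 0.13). Slc7a7, which exports cationic amino acids from epithelia, was 0.98 ± 0.17 lower in the forestomach than in the corpus on the log2 scale (adjusted p = 9.76e-04). The cationic carrier Slc7a1 was also lower there (-0.54 ± 0.16, adjusted p = 0.0152), a call lost without forestomach array 1 or 3 and without series 1 or 3 (adjusted p of 0.0501 to 0.127). Slc7a2, another cationic carrier, was higher in the forestomach (0.63 ± 0.15, adjusted p = 0.00694), but its other 2 kept probe sets were not called, and the mean of the 3 was -0.06 (adjusted p = 0.639). The call for Slc7a2 was also lost without series 1 (adjusted p = 0.0759) and with forestomach array 1 alone (0.0652). Slc7a14, Slc7a6 and Slc7a6os did not pass between forestomach and corpus, although Slc7a14 did with series as a block (0.26, adjusted p = 0.0391). The junction of Slc7a14, at 36.8 to 48.8, was 0.73 ± 0.15 below the forestomach (adjusted p = 0.00495). This junction call ended with forestomach array 1 alone. The other kept probe set of Slc7a6 was called lower in the forestomach (-0.75), and the mean of both passed at -0.51 (adjusted p = 0.0032).

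**Figure D3:**
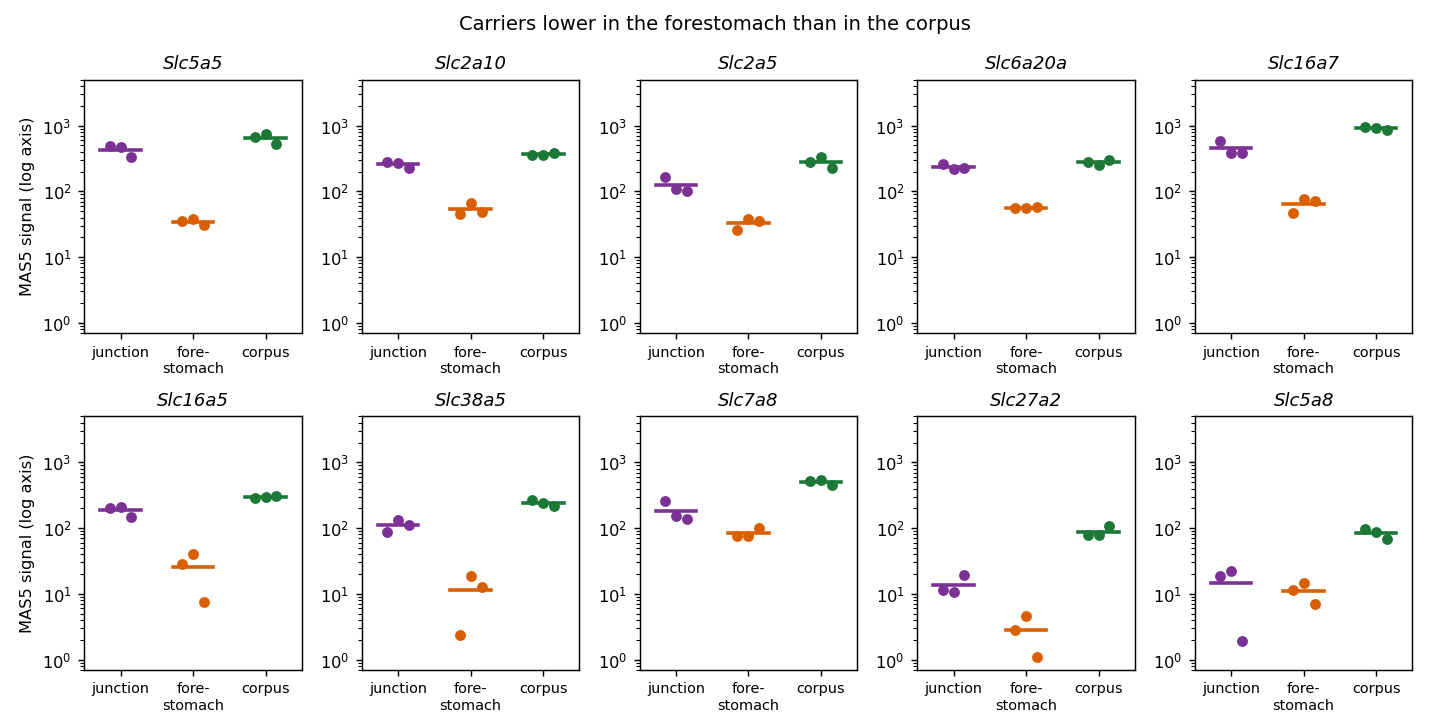
Signal (y axis, log scale) of 10 member genes on each of the 3 arrays of junction, forestomach and corpus; points are arrays and lines the mean of 3. The forestomach arrays lie below the corpus arrays in every panel; the junction arrays lie near the corpus for Slc6a20a and near the forestomach for Slc5a8.

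In the Slc16 family of monocarboxylate carriers, 5 members were higher and 5 lower in the forestomach than in the corpus. Slc16a7, the high-affinity pyruvate and lactate carrier MCT2, read 584.4, 383.2 and 384.0 in the junction, 47.6, 75.7 and 71.4 in the forestomach, and 943.1, 923.2 and 865.1 in the corpus. Its zones did not overlap. It was 3.64 ± 0.20 lower in the forestomach than in the corpus on the log2 scale (12.5-fold, adjusted p = 9.14e-07) and 1.03 ± 0.20 lower in the junction than in the corpus (2.04-fold, adjusted p = 0.00669). The second call was lost without series 2 (adjusted p = 0.0932) and without series 3 (0.0891). Slc16a5, a carrier known from drug transport, had 199.7, 208.6 and 149.8 in the junction, 28, 41.0 and 7.6 in the forestomach, and 290.7, 297.2 and 308.5 in the corpus. The forestomach stood far below both others, by 3.26 ± 0.34 against the corpus (9.55-fold, adjusted p = 4.56e-05; -2.59 with the larger constant), and the junction was 2.59 ± 0.34 above the forestomach (6.01-fold, adjusted p = 3.78e-04; 1.98 with the larger constant). The junction arrays of Slc16a5 lay below all corpus arrays, but the difference of -0.67 ± 0.34 did not pass (adjusted p = 0.181). It passed with only the 6 arrays compared (adjusted p = 0.0182), without forestomach array 3 (0.0208) and with the larger constant (0.0493).

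Slc16a3, the lactate exporter MCT4 of glycolytic cells, was dim and lowest in the forestomach. Its signals were 30.4, 41.3 and 36.3 in the junction, 5.5, 2.0 and 13.2 in the forestomach, and 51.3, 55.0 and 33.2 in the corpus. Junction and corpus overlapped. Forestomach signals were below the filter level on all 3 arrays, and the difference of -1.78 ± 0.25 from the corpus (adjusted p = 2.99e-04) became -2.83 with the smaller constant and -1.03 with the larger. Slc16a1, the general lactate carrier MCT1, had 1321.1, 1532.5 and 1409.2 in the junction, 1234.9, 1408.9 and 1172.7 in the forestomach, and 1032.9, 1014.9 and 1121.5 in the corpus. It was bright in all zones, and its junction arrays exceeded the corpus arrays by 0.42 ± 0.10 (1.34-fold, adjusted p = 0.019). This call ended without junction array 2 or 3, corpus array 1 or 2, or any series (adjusted p of 0.0537 to 0.134). The forestomach difference of 0.26 ± 0.10 did not pass (adjusted p = 0.0548). Bsg, the chaperone that takes MCT1 and MCT4 to the membrane, ran from 4104.8 to 4237.2 in the junction, from 2377.3 to 2666.4 in the forestomach and from 4012.4 to 4685.2 in the corpus. Emb, the usual partner of MCT2, ran the other way, 0.92 ± 0.16 higher in the forestomach than in the corpus (adjusted p = 0.00122).

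Slc16a9 and Slc16a6 had their high values in the junction as well as in the forestomach. Slc16a9, linked in human genetics to carnitine and urate levels, read 240.3, 290.4 and 387.1 in the junction, 332.7, 276.0 and 313.3 in the forestomach, and 88.3, 95.9 and 89.8 in the corpus. Junction and forestomach overlapped (-0.03 ± 0.16, adjusted p = 0.899), and both exceeded the corpus, by 1.62 ± 0.16 (3.07-fold, adjusted p = 1.8e-04) and by 1.64 ± 0.16 (3.13-fold, adjusted p = 3.26e-05). Slc16a6, known to export ketone bodies from liver cells in zebrafish, was highest in the junction, with 192.3 to 230.4 there, 140.7 to 189.7 in the forestomach and 95.8 to 129.7 in the corpus. All its junction arrays were above the other 6. The junction exceeded the corpus by 0.85 ± 0.14 (adjusted p = 0.00348, or 0.0518 without series 2). Its 0.36 ± 0.14 over the forestomach passed with series as a block (adjusted p = 0.0343) but not without it (0.0727). The forestomach of Slc16a6 exceeded the corpus by 0.49 ± 0.14 (adjusted p = 0.0159). This call was lost without forestomach array 2, corpus array 1 or series 2 (adjusted p of 0.0542 to 0.113), and with forestomach array 1 alone.

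The remaining members of the family were called in both directions. The aromatic amino acid carrier Slc16a10 was lower in the forestomach than in the corpus (-1.32 ± 0.12, adjusted p = 2.65e-05), and so was Slc16a12, a creatine carrier whose forestomach arrays were all below the filter level (-1.39 ± 0.24, adjusted p = 9.87e-04). Slc16a11 was higher (0.93 ± 0.24, adjusted p = 0.00998; 0.0768 without series 3 and 0.207 with forestomach array 1 alone), as was Slc16a13 (0.92 ± 0.20, adjusted p = 0.0036). Slc16a4 was higher by 0.60 ± 0.16 (adjusted p = 0.0106), a call lost without series 2 or 3, with forestomach array 1 alone and in the mean of its probe sets (adjusted p of 0.0543 to 0.253). Slc16a14 passed in no comparison, with standard errors of 0.54.

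In the Slc27 family, Slc27a4 was higher and Slc27a2 lower in the forestomach than in the corpus. Slc27a4, a fatty acid transport protein that mouse skin needs for its barrier, read 471.8, 547.0 and 518.4 in the junction, 791.2, 725.0 and 764.4 in the forestomach, and 382.1, 410.2 and 334.5 in the corpus. Its zones did not overlap: it was 1.0 ± 0.10 higher in the forestomach than in the corpus (2.0-fold, adjusted p = 4.75e-05) and 0.44 ± 0.10 higher in the junction than in the corpus (adjusted p = 0.0165). The junction call was lost without junction array 2 or 3, corpus array 3 or any series (adjusted p of 0.0515 to 0.166). The junction was 0.56 ± 0.10 below the forestomach on the log2 scale (adjusted p = 0.00255; 0.0566 without series 1).

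Slc27a2, which activates very long-chain fatty acids and takes part in their uptake in liver and kidney, was above the filter level in the corpus only. It had 11.3, 10.6 and 19.5 in the junction, 2.8, 4.6 and 1.1 in the forestomach, and 79.2, 77.2 and 107.3 in the corpus. The zones did not overlap, though both lower ones lay under the filter level on all arrays. Slc27a2 was tested through its corpus arrays alone, so its p-values against the corpus are not independent of the filter. Forestomach minus corpus was -2.94 ± 0.18 (adjusted p = 1.89e-06), or -4.63 and -1.81 with the smaller and larger constants, and junction minus corpus was -2.05 ± 0.18 (adjusted p = 8.41e-05), or -1.41 with the larger. The junction was 0.89 ± 0.18 above the forestomach (adjusted p = 0.00428), between 0.40 and 2.01 over the alternatives. This call is counted with the others, although all arrays of both zones lay under the filter level. Slc27a1, known from muscle and fat, read 102.2, 132.8 and 131.9 in the junction, 213.0, 150.0 and 228.5 in the forestomach, and 198.6, 158.7 and 187.7 in the corpus. It was lowest on every junction array, 0.64 ± 0.17 below the forestomach (adjusted p = 0.0166), a call lost without junction array 1, forestomach array 1 or 3, series 1 or series 3 (adjusted p of 0.0567 to 0.169). Against the corpus its junction difference was -0.54 ± 0.17 (adjusted p = 0.0528). That difference passed under some alternatives, such as only the 6 arrays compared (adjusted p = 0.0379) and the mean of its probe sets (0.0489). The summed adipocyte markers were 1780 to 1897 in the junction, 2594 to 4968 in the forestomach and 2371 to 2923 in the corpus. Most of that sum was Fabp4, at 1665.1 to 1772.4, 2539.9 to 4231.3 and 2301.7 to 2629.6. Of the 4 adipocyte markers, 0 were called between junction and corpus. Against the forestomach, 1 was higher and 1 lower in the junction. The part of fat in the Slc27a1 differences was not tested.

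Among the sodium-coupled neutral amino acid carriers of the Slc38 family, Slc38a5 fell most. Slc38a5, which moves glutamine and glycine in either direction, had signals of 88.1, 134.6 and 111.0 in the junction, 2.4, 18.8 and 12.6 in the forestomach, and 271.7, 242.2 and 213.7 in the corpus. Its zones did not overlap, and its forestomach arrays were all below the filter level. It was lower in the forestomach than in the corpus by 3.65 ± 0.29 on the log2 scale (adjusted p = 8.48e-06). That difference was -4.64 and -2.71 with the smaller and larger constants, and -4.35 with forestomach array 1 alone. The junction exceeded the forestomach by 2.58 ± 0.29 (adjusted p = 1.62e-04), or by 3.51 and 1.76 with the smaller and larger constants and 3.28 with forestomach array 1 alone. It was below the corpus by 1.07 ± 0.29 (2.10-fold, adjusted p = 0.0276), a call lost with the smaller constant (adjusted p = 0.189) and without junction array 1 or 3, any corpus array, series 2 or series 3 (0.0509 to 0.151).

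Slc38a10 and Slc38a1 moved apart from each other. Slc38a10 read 1443.0, 1101.8 and 1178.2 in the junction, 738.4, 723.8 and 839.6 in the forestomach, and 1930.2, 1884.0 and 1965.1 in the corpus, without overlap. It was 1.32 ± 0.12 lower in the forestomach than in the corpus on the log2 scale (2.5-fold, adjusted p = 1.76e-05) and 0.64 ± 0.12 lower in the junction than in the corpus (adjusted p = 0.00515; 0.0754 without series 2 and 0.081 without series 3). All 5 other kept probe sets of Slc38a10 were called the same way in the first of these. Slc38a1, a glutamine and alanine importer, had 529.0, 414.6 and 438.2 in the junction, 926.6, 807.3 and 802.5 in the forestomach, and 352.9, 363.0 and 391.7 in the corpus. No arrays overlapped, though the junction's 0.31 ± 0.12 over the corpus did not pass (adjusted p = 0.0872). The forestomach exceeded the corpus by 1.17 ± 0.12 (2.25-fold, adjusted p = 3.32e-05), but its other kept probe set gave -0.36 without a call, and the mean of both was 0.41 (adjusted p = 0.0235).

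Smaller differences were measured for Slc38a9, the lysosomal arginine sensor, and Slc38a2, a carrier known to be induced when amino acids are short. Slc38a9 read 151.3, 157.8 and 154.6 in the junction, 228.3, 219.0 and 191.8 in the forestomach, and 143.6, 146.1 and 147.0 in the corpus. Its forestomach was 0.52 ± 0.09 above the corpus (adjusted p = 0.00101). Its junction was 0.44 ± 0.09 below the forestomach (adjusted p = 0.00408, or 0.0744 without series 1 and 0.0537 without series 2). Slc38a9 had 7 kept probe sets, of which 1 other was called the same way in the first comparison and 2 others in the second. Over the 7 the first difference ran from -0.15 to 1.01. Slc38a2 had 2180.1, 2051.2 and 1889.7 in the junction, 3424.3, 2522.4 and 2735.5 in the forestomach, and 2693.6, 2010.8 and 2403.2 in the corpus. Forestomach and corpus overlapped (0.29 ± 0.15, adjusted p = 0.126), and of the 3 comparisons junction minus forestomach passed (-0.49 ± 0.15, adjusted p = 0.025). One of its other 2 kept probe sets was called higher in the forestomach than in the corpus (0.63), and the mean of the 3 passed at 0.36 (adjusted p = 0.0278). The junction call of Slc38a2 was lost without junction array 2 or 3, forestomach array 1, series 1 or series 3 (adjusted p of 0.058 to 0.149). Slc38a3, Slc38a6 and Slc38a7 passed in no comparison. Slc38a4 did not pass either, but its other kept probe set was called lower in the forestomach than in the corpus (-1.33), and the mean of both was -0.63 (adjusted p = 0.00718).

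No member was called above both neighbours or below both in the junction. The test asks that the junction differ in the same direction from forestomach and corpus and takes the larger p of the 2 comparisons, adjusted over all genes. It called 27 of the 13637 genes above both (0.198%) and 2 below both (0.0147%). Of the members, 10 had a junction mean above both and 15 below both. At an unadjusted p under 0.05 there was 1 above and there were 4 below, with lowest adjusted p of 0.826 and 0.367. The count was 0 in each direction under every alternative run.

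The level of the junction between its neighbours differed from member to member. On the linear scale, the junction mean of the 19 members higher in the forestomach lay at a median of 25.8% of the way from corpus (0%) to forestomach (100%), beside 30.6% over the 4085 genes called the same way. For the 21 members lower in the forestomach the median was 41.3%, beside 44.1% over 4083 genes. The junction was nearer to the corpus for 15 of the 19 and for 11 of the 21. These counts depend on the scale: on the log2 scale they were 11 of the 19 and 15 of the 21, with medians of 43.9% and 28.3%. At the corpus level or beyond it were Slc6a15 (-0.39%), Slc7a1 (-3.84%), Slc6a4 (-6.47%) and Slc7a2 (-13.3%), and at or past the forestomach level were Slc16a9 (99.4%), Slc5a3 (115%) and Slc16a6 (195%) among genes higher there. Among genes lower in the forestomach, Slc5a8 (95.4%), Slc7a5 (89.1%) and Slc27a2 (87.1%) had already fallen in the junction, and Slc6a9 reached 117%. All junction and forestomach arrays of Slc5a8 and Slc27a2 were below the filter level. So were all junction and corpus arrays of Slc6a15 and Slc6a4, and the exact places of these genes are not resolved. Slc2a1 lay at -46.1%, since its junction mean exceeded both neighbours. No gene's place on this scale was tested against another's.

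**Figure D4:**
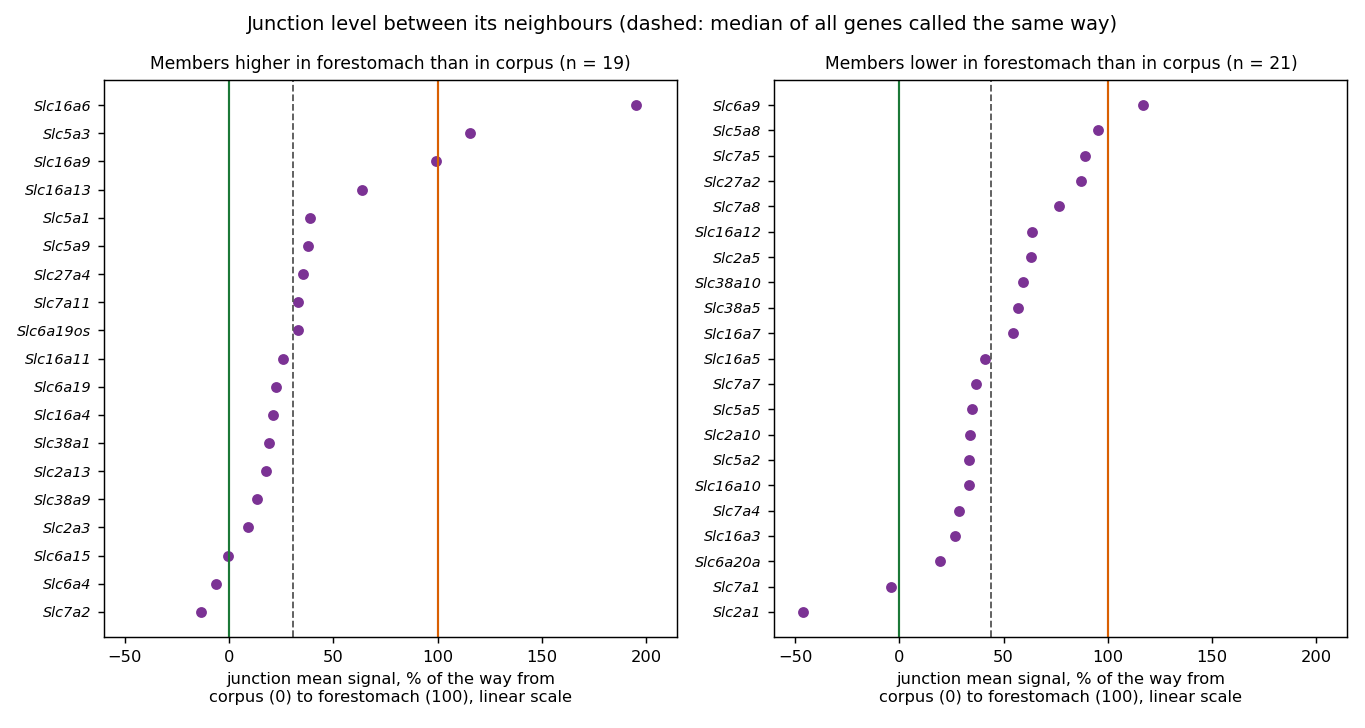
Place of the junction mean between its neighbours for members called higher (left, 19 genes) or lower (right, 21 genes) in the forestomach than in the corpus; the x axis is percent of the way, on the linear scale, from the corpus mean (green line at 0) to the forestomach mean (orange line at 100), and the dashed line is the median of all genes called the same way. Most members that are higher in the forestomach sit left of the midpoint, with Slc16a6, Slc5a3 and Slc16a9 at the far right.

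On forestomach arrays 1, 2 and 3 the 21 members lower in the forestomach stood at a median of 19.9%, 20% and 21.1% of their corpus mean, and single members varied more, as the values of Slc38a5 show. The medians of the parietal, chief and mucous markers on the same arrays are given above. With forestomach array 1 as the only forestomach array, 18 members were lower and 14 higher than in the corpus.

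Genes that handle the same nutrients inside the cell changed in both directions between forestomach and corpus, as the carriers did. Counts below are to be read beside 30.0% higher and 29.9% lower over all genes, with a median of -0.01. Of 18 genes of hexose phosphorylation, glycolysis and lactate handling, 5 were higher and 8 lower in the forestomach (median -0.07). The largest differences were those of the lactate dehydrogenase subunit Ldhb (-2.27), the mitochondrial pyruvate carrier subunit Mpc1 (-1.57), the glycolytic regulator Pfkfb3 (-1.22) and pyruvate kinase Pkm (-1.21), with adjusted p of at most 1.77e-04. Of 14 genes of fatty acid uptake, binding and activation, 4 were higher and 9 lower (median -0.35). The acyl-CoA synthetase Acsbg1 was higher, at 116.0, 202.8 and 201.1 in the junction, 667.2, 621.0 and 741.7 in the forestomach and 3.4, 6.0 and 3.1 in the corpus (forestomach minus corpus 5.61 ± 0.20, adjusted p = 1.44e-07; 7.07 and 4.33 with the smaller and larger constants). The fatty acid binding proteins Fabp2 (-4.43), Fabp1 (-4.34) and Fabp3 (-4.16) were lower. Fabp1 and Fabp2 gave -5.65 and -5.80 with the smaller constant and -3.23 and -3.25 with the larger, and Fabp3 gave -2.59 in the mean of its probe sets.

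Of 14 genes of the amino acid response and serine synthesis, 6 were higher and 4 lower in the forestomach (median 0.16). Asparagine synthetase Asns, a known Atf4 target, read 2233.4, 1576.4 and 1758.8 in the junction, 430.2, 552.2 and 473.8 in the forestomach and 4151.9, 3815.6 and 3614.3 in the corpus (-2.97 ± 0.15, adjusted p = 5.7e-07), opposite to Slc7a11. Mthfd2 of mitochondrial folate metabolism was also lower (-2.90), whereas the serine synthesis enzymes Psph (1.99) and Phgdh (1.72) were higher. Of 12 glutathione and redox genes, 4 were higher and 6 lower (median -0.31): haem oxygenase Hmox1 (3.86) and glutathione peroxidase Gpx2 (2.49) were higher, like Slc7a11, while glutathione reductase Gsr (-2.68) and the cysteine-making enzyme Cth (-1.55) were lower. Of 5 creatine genes (median 0.22), the muscle kinase Ckm was higher (1.98, or 1.08 in the mean of its probe sets) and Ckmt1 (-1.24) and Ckb (-0.59) lower, the last not called without series 2 (adjusted p = 0.111) or with forestomach array 1 alone (0.0994). Ckm is itself a skeletal muscle marker and Ckb a parietal cell marker here.

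Among 12 amino acid and peptide carriers of other families, 5 were higher and 2 lower in the forestomach (median 0.42). The intestinal di- and tripeptide carrier Slc15a1 (PEPT1) read 74.8, 119.5 and 142.1 in the junction, 403.6, 349.5 and 361.8 in the forestomach and 6.0, 11.9 and 2.9 in the corpus. It exceeded the corpus by 4.53 ± 0.24 in the forestomach (adjusted p = 8.63e-07), or by 5.72 and 3.42 with the smaller and larger constants. Slc15a1 had the same order of zones as Slc5a1 and Slc6a19. The opposite order was that of Slc2a5 (-2.77), Slc6a20a (-2.11), Slc7a8 (-2.47), Fabp1 (-4.34) and Fabp2 (-4.43), among others. The amino acid carrier Slc36a4 was higher (0.73), and the glutamate carriers Slc1a3 (-1.83) and Slc1a2 (-1.71) were lower. Of 6 partner proteins tested, 3 were higher and 3 lower in the forestomach (median -0.21).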

How the data were processed

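Pooled total RNA was labelled with biotin and hybridised to Affymetrix mouse expression arrays, 1 per pool. Each probe set has 1 deposited intensity, linear and not logged, for which the authors used MAS5, per the submitters' processing notes. The MAS5 version is not given in the sources used here. Depth has no meaning for arrays: 3 arrays per zone limit the precision, and p-values measure the spread between pools of different mice. MAS5 subtracts mismatch signal, which leaves dim signals noisy.

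Of 45101 probe sets, 64 controls were left out. The platform annotation gave 34958 probe sets 1 symbol, 932 several and 9211 none. Symbols were updated through Entrez IDs to the GRCm38.p6 gene table (34754 matched). Of 29511 kept probe sets, 24870 had 1 symbol, and each of 13637 genes was represented by its kept probe set of highest mean log2 signal. The pseudocount, 9.9, is the 20th percentile of the signal of the middle array. limma 3.58.1 in R 4.3.3 fitted 1 mean per zone to all 9 arrays (6 residual and 2.57 prior degrees of freedom) with two-sided moderated tests, and was tested on simulated data. Figures used matplotlib 3.10.9.

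Array medians were 47.9 to 57.1. Arrays of one zone correlated at 0.976 to 0.982. The mean 3′ to 5′ ratio of Gapdh was 0.759 in the junction, 0.846 in the forestomach and 0.723 in the corpus, and its part was not tested. Since 1 series holds 1 set of mice, its number pairs the arrays; their deviations from zone means correlated at -0.0286 to 0.123 (mean 0.033 over 9 pairs, 1 over 0.1), and series as a block was an alternative.

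Members, marker and pathway lists and tests were chosen with earlier results of these data known. Values on every array are given for up to 4 members per family with the largest called difference without overlap and for 13 preset members, and for each pathway list up to 4 genes are named; further members are given by range, and values on every array of some pathway genes were added to show zones. Bsg was named after its values were seen. Of 15 marker lists, red blood cell genes had no gene tested. Alternatives were constants of 1 and 30.9, no filter or one at the 60th percentile, scaling by quantiles or by the array median, averaging the probe sets per gene, fitting every probe set, limma's trend and robust options, fitting only the 6 arrays compared, each array or series left out, and forestomach array 1 as the only forestomach array.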

Additional observations from a re-analysis of the deposited data

How the results depend on the processing

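Of 100 calls among the members, 57 held under each of the 24 alternatives in which the gene was tested, and 43 were lost under 1 or more. A gene that did not pass the stricter filter, such as Slc16a3, was not tested there, and its call was not counted as lost. Of 89 comparisons not called, 26 were called under at least 1. Of the 100 calls, the sign reversed in that of Slc7a2, forestomach minus corpus, where probe sets were averaged per gene (-0.064, adjusted p = 0.639). With the same averaging Slc38a4 was called at -0.63 (adjusted p = 0.00718), against an uncalled 0.07. Other uncalled differences changed sign without a call. Members higher in the forestomach than in the corpus numbered 17 to 20 with arrays left out, against 19 with all, and lower ones 18 to 22 against 21. Higher in the junction than in the corpus were 5 to 10, against 10, and lower 3 to 13, against 12. Higher in the junction than in the forestomach were 14 to 18, against 19, and lower 11 to 18, against 19. With forestomach array 1 alone that last count was 12. Above or below both neighbours the count was 0 throughout, with adjusted p of at least 0.0859. The cause of these changes was not tested, but each such fit has fewer arrays. Over all genes, 0 to 67 were above both and 0 to 14 below both, against 27 and 2, and counts in the junction comparisons with arrays left out were as low as 903 higher and 326 lower against the corpus, with 1801 and 1606 in all arrays. With series as a block 3 calls were lost (Slc2a10 between junction and corpus, Slc16a4 and Slc5a2 between junction and forestomach, adjusted p of 0.0523, 0.0651 and 0.0799) and 6 were made: Slc6a6 (0.00218), Slc6a17 (0.0388) and Slc7a14 (0.0391) between forestomach and corpus, Slc7a14 (0.0136) and Slc16a12 (0.0154) between junction and corpus, and Slc16a6 (0.0343) between junction and forestomach. The block changed no other call. Signals near or below 29.0 to 36.5 limit what the arrays resolve, so the sizes for Slc27a2, Slc5a8, Slc16a3 and Slc38a5 depend on the constant added.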
